A study of Arabidopsis thaliana with 13 samples.

Results

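The subject is the set of genes encoded in the plastid genome of Arabidopsis thaliana, followed in whole Col-0 seedlings on Affymetrix ATH1 arrays. Members were the probe sets that the array annotation gives to 1 plastid-encoded gene and whose mean log2 signal over the course lay above 5. This took in 69 of the 22746 non-control probe sets, each for a different gene, out of 78 protein-coding gene symbols that the gene table lists on the plastid genome. All 69 single-gene plastid probe sets passed the level of 5, with means from 5.23 to 11.8. The nearest to the limit was ndhF (5.23), followed by psbN (5.31), and no plastid probe set lay at or below it. A further 8 probe sets are given to both copies of a duplicated plastid gene and were left out.

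Samples were taken at intervals of 4 h between hours 26 and 74, which gave 13 arrays, 1 for each time point, and there was no treatment or mutant. Per the labels, all plants were Col-0 seedlings (stock N1093) at developmental stage 1.0, grown on MS agar plates that held 3% sucrose, at 22 C and with a photoperiod of 12 h. Hour 0 is not defined in the labels, and neither the lighting during sampling nor the number of seedlings in a sample is given, so times are hours of the course and peak times are given modulo 24. Without a second array at any time point, p-values rest on how far single arrays lie from the fitted curve, and precision is limited by there being 13 of them. Every array had a trimmed mean signal of 100.01, and median signals ran from 46.8 to 50.9. All 5 markers of green tissue were bright, for example LHCB4.1, an antenna protein of photosystem II, at 2422 to 3919. The root hair expansins EXPA7 and EXPA18 were at 21.7 to 60.8 and 35.3 to 64.9, and PYK10, a beta-glucosidase of roots and hypocotyls, was at 2524 to 3492. In such bulk RNA, fewer cells of a type and less RNA per cell cannot be told apart.

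The plastid genome keeps a small share of the genes of its cyanobacterial ancestor. It encodes core subunits of both photosystems, the cytochrome b6f complex, the ATP synthase and the NDH complex, the large subunit of Rubisco, and part of the plastid's own ribosome and RNA polymerase. Most of these genes lie in operons and are read into shared transcripts, which are then cut and trimmed. Photosynthesis genes are transcribed mainly by the bacterial-type polymerase, whose core subunits are plastid-encoded and whose sigma factors come from the nucleus, while a phage-type polymerase of nuclear origin reads the polymerase genes and some others. In plastids poly(A) tails mark RNA for decay rather than stabilise it. The sources used here do not state how the RNA was primed for labelling, and what part priming has in the signals below was not tested.

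A linear model with a straight line in time and a 24 h cosine and sine was fitted to the log2 signal of 13647 probe sets with limma. The amplitude is the height of the fitted daily curve above its mean, and the slope is the straight-line change per 24 h, both on the log2 scale. Of the 69 genes, 1 was called rhythmic at an adjusted p under 0.05 (1.45%), against 18.3% of all probe sets tested. Without the adjustment, 6 of the 69 had a p under 0.05 (8.70%, against 31.0% of all probe sets), namely psbA, psbE, psbF, psbJ, petN and rpl33. For drift, 1 gene was called falling (1.45%, against 0.601% of all probe sets) and 0 rising (against 0.359%). Without the adjustment, 12 had a slope below 0 with a p under 0.05 (17.4%, against 5.94%), and 1, rps14, had such a slope above 0 (1.45%, against 5.20%).

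The median amplitude of the 69 genes was 0.12 (quartiles 0.07 and 0.20), beside 0.14 over all probe sets tested (quartiles 0.09 and 0.23). The median residual SD was 0.25 (quartiles 0.20 and 0.41), beside 0.18 over all (quartiles 0.14 and 0.24). The test of an amplitude is weaker the larger this SD, and a gene that was not called is not shown to be constant. Fitted peaks fell in hours 16 to 24 for 48 of the 69 genes, in hours 8 to 16 for 12 and in hours 0 to 8 for 9. Over all probe sets tested the same windows held 4744, 4766 and 4137. Single peak times are imprecise, with SEs from 0.92 h (psbJ) to 27.8 h (petG). Fitted to each cycle alone, the peaks of a gene lay 4.89 h apart in the median. The count of 48 was 26 with the plastid mean of each array subtracted, 35 without hour 70 and 53 without hour 34. The median slope was -0.06 (quartiles -0.22 and 0.05), beside 0.01 over all, and 45 of 69 slopes were below 0 (65.2%), beside 6532 of all 13647 (47.9%). The count of 45 fell to 35 without hour 74 and to 32 without hours 26 and 74. It fell to 28 without hours 34, 70 and 74, a choice made after seeing the data.

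**Figure D1:**
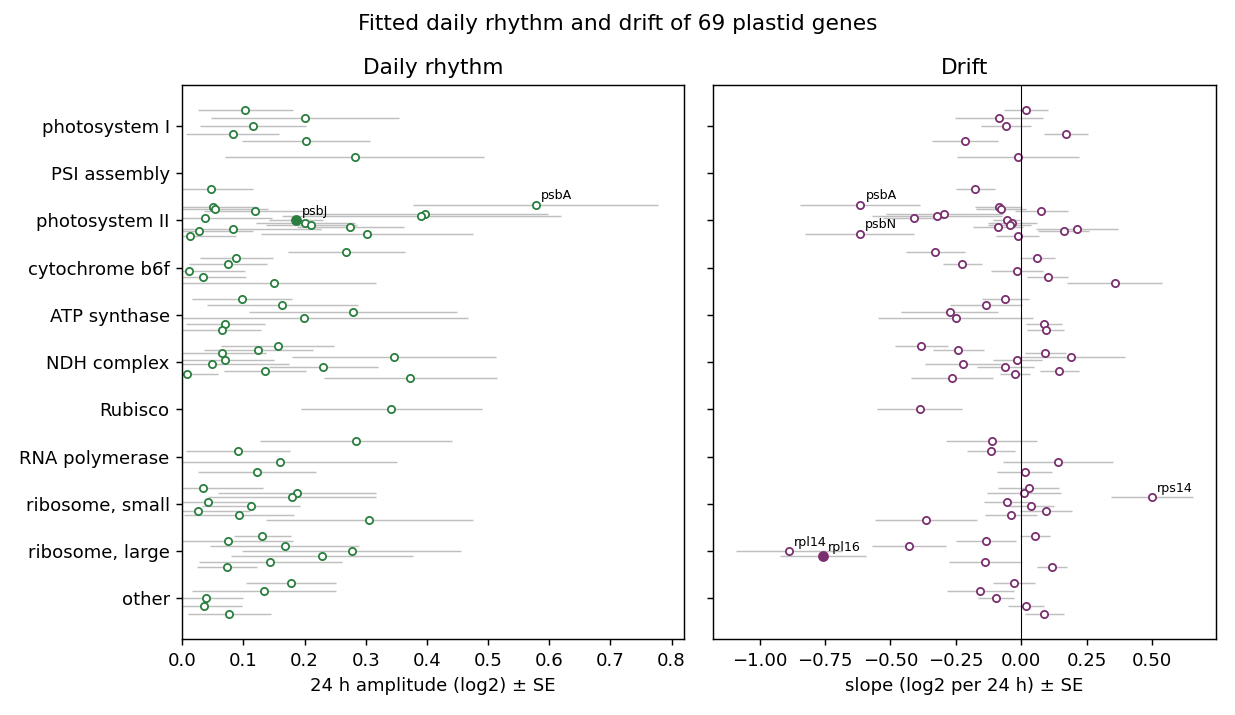
Fitted 24 h amplitude (left, log2) and slope (right, log2 per 24 h) of each of the 69 plastid genes, grouped by complex, with bars of 1 SE and filled points for an adjusted p under 0.05. The filled points are psbJ on the left and rpl16 on the right; psbA has the largest amplitude, 0.58, and rpl14 the steepest slope, -0.89.

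On 5 of the 13 arrays the plastid genes of every complex lay, by their median, on the same side of their course mean. Each gene was centred on its own mean, and the median over the 69 genes was taken per array. That median was highest at hour 70 (0.25), hour 34 (0.23) and hour 46 (0.17), and lowest at hour 74 (-0.21). On the other arrays it lay between -0.09 and 0.04. At hour 34, 58 of the 69 genes were above their own mean, at hour 70 there were 54 and at hour 46 there were 52, whereas at hour 62 there were 21 and at hour 74 there were 18. The median of every complex was above 0 at hours 34, 46 and 70 and below 0 at hours 62 and 74.

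Some arrays 24 h apart differed in this median, and others lay closer together. Hour 34 (0.23) stood above hour 58 (0.00), and hour 74 (-0.21) stood below hour 50 (-0.02) and hour 26 (0.02). Hours 46 (0.17) and 70 (0.25) were both high. The median was -0.09 and -0.03 at hours 30 and 54, and -0.05 and -0.09 at hours 38 and 62. At hours 42 and 66 it was 0.04 and -0.06. The highest signal of a gene fell at hour 70 for 26 of the 69 genes, at hour 34 for 13 and at hour 46 for 9. The lowest fell at hour 74 for 25 and at hour 30 for 10. The median over all probe sets tested stayed between -0.03 and 0.03 on every array. Across the 69 genes, the centred profiles of arrays 24 h apart correlated by -0.03 on average (7 pairs, -0.24 to 0.22), beside 0.38 across all 13647 probe sets. Both values run across genes, and genes are no independent replicates, the less so where they share a transcript.

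Control probe sets varied between the same arrays. The mean of 9 hybridisation controls, which read bacterial and phage sequences added before hybridisation, lay 0.15 above its own mean at hour 34, 0.01 at hour 46 and 0.38 at hour 70, and at -0.41 at hour 74. It was also high at hour 50 (0.38), where the plastid median was -0.02, and low at hour 38 (-0.48), where the plastid median was -0.05. The probe set for cytosolic 25S rRNA ranged from a signal of 20.3 at hour 38 to 335 at hour 34, and lay at 24.1 at hour 30 and 31.9 at hour 54. The log2 difference between the 3' and 5' probe sets of GAPDH ran from -0.07 to 0.32 and that of actin from 0.25 to 0.63. The part of hybridisation and RNA quality in the common plastid profile was not tested. With the hybridisation controls or the 25S rRNA added to the curve as a term, 1 plastid gene was called rhythmic in each fit, and 2 were called falling. The fitted sizes moved more. With the hybridisation controls as a term, the median amplitude of the 69 genes was 0.08 in place of 0.12, while that of all probe sets tested stayed at 0.14, and 29 fitted peaks in place of 48 fell in hours 16 to 24. In that fit the amplitude was 0.05 for psaA, 0.11 for atpH, 0.18 for psbC, 0.13 for rpoC2, 0.13 for psbF and 0.15 for rpl14, each smaller by over 1.5 times than the amplitude without the term, and 0.19 for psbJ, as without it. Other genes went the other way in the fit with the hybridisation controls, among them petD (0.21 in place of 0.15) and petB (0.08 in place of 0.03). The amplitudes of psaC (0.20) and rpl33 (0.13) stayed as they were. With the 25S rRNA as a term the median amplitude was 0.12, and 43 peaks fell in hours 16 to 24.

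**Figure D2:**
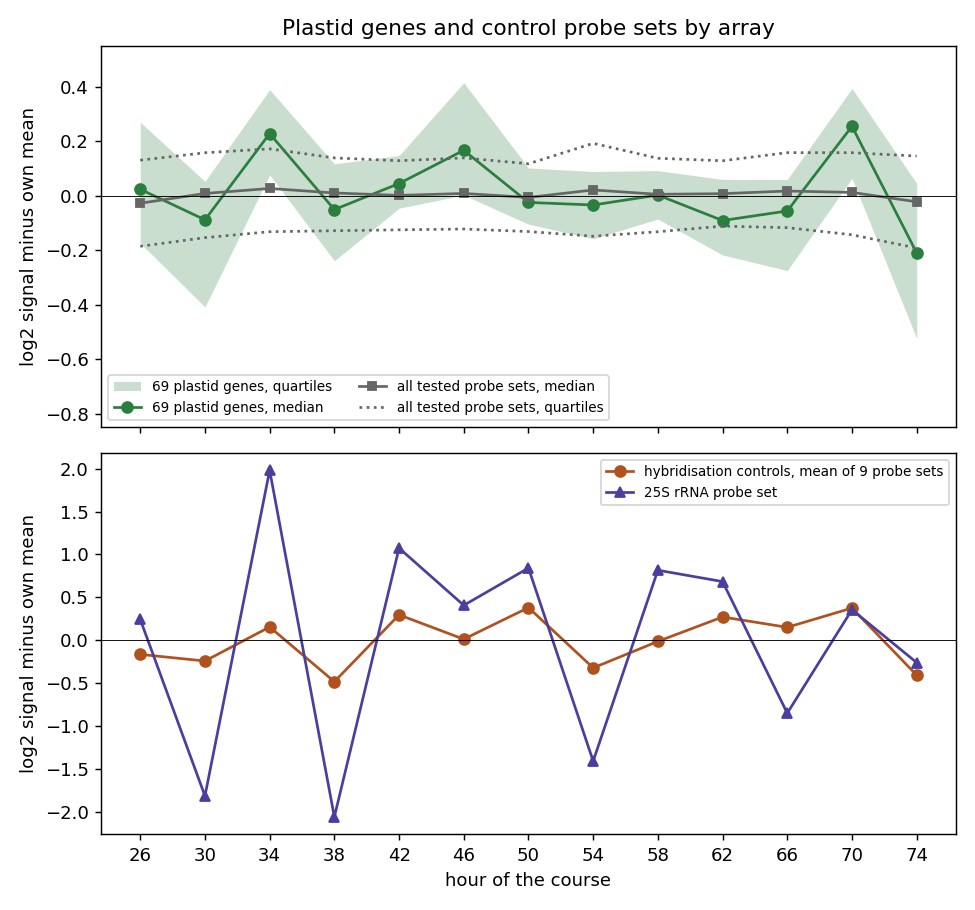
Top, log2 signal minus the gene's own mean by hour of the course, as the median and quartiles of the 69 plastid genes (green) and of all tested probe sets (grey). Bottom, the same scale for the mean of 9 hybridisation controls and for the 25S rRNA probe set; the plastid median stands out upwards at hours 34, 46 and 70 and downwards at hour 74, while the grey median stays near 0.

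**Figure D3:**
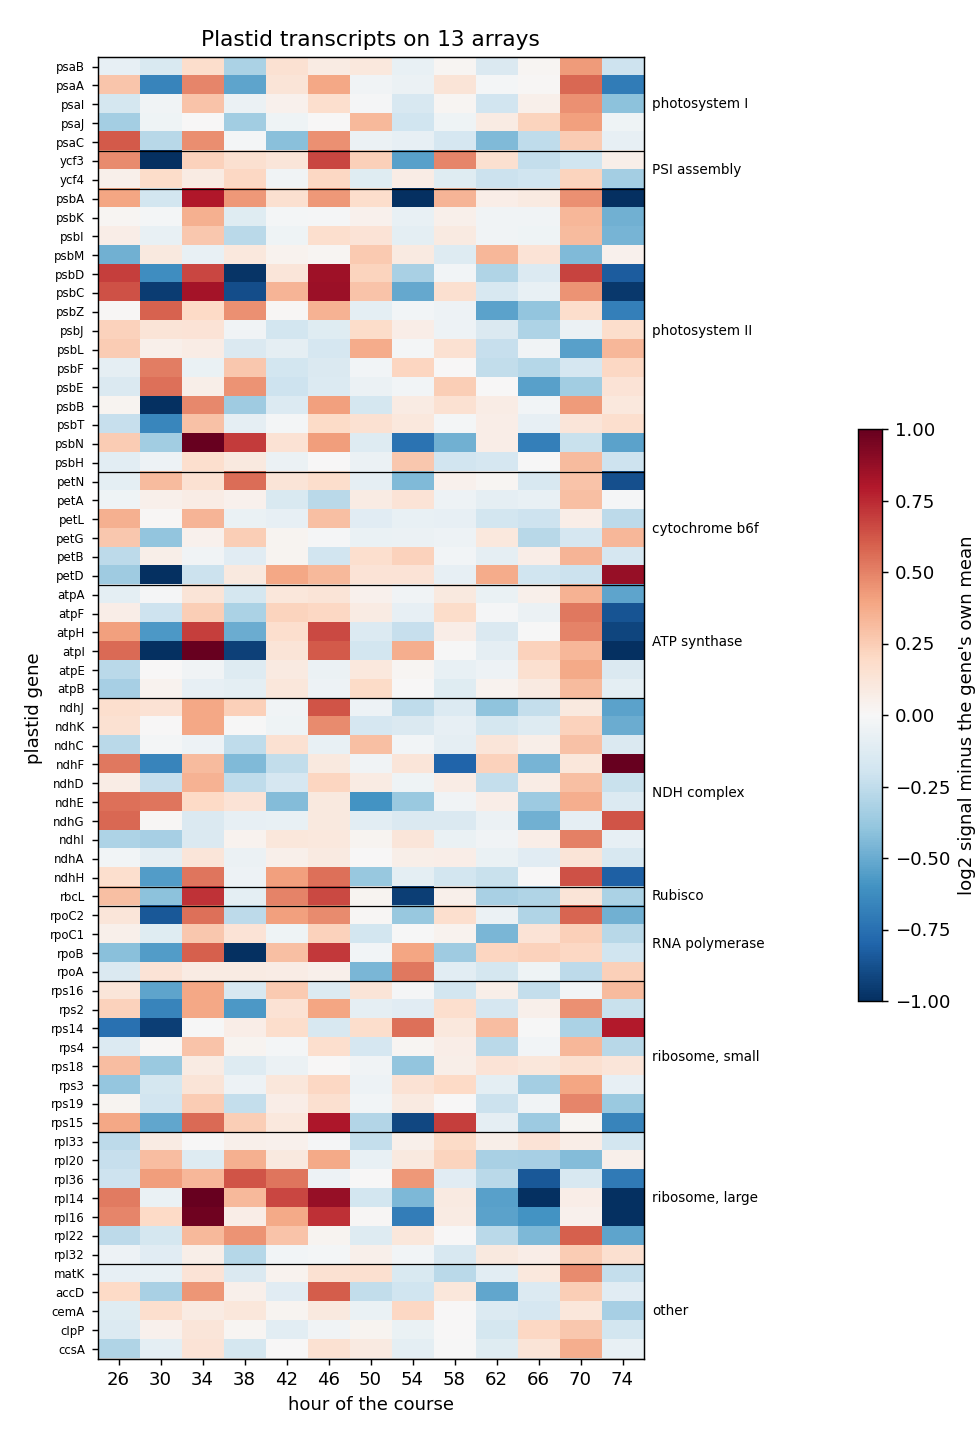
Log2 signal minus the gene's own mean (colour, from -1 to 1) for the 69 plastid genes in rows, grouped by complex, on the 13 arrays in columns. The columns of hours 34, 46 and 70 are mostly red and that of hour 74 mostly blue, and the rows of psbE, psbF, psbL and psbJ are among those that differ from this.

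Photosystem II, which splits water, was represented by 15 genes, of which 1 was called rhythmic and 0 drifting. The called gene was psbJ, for a small subunit of the complex. Its signal on the 13 arrays from hour 26 to hour 74 was 746, 697, 699, 622, 561, 584, 723, 666, 613, 575, 513, 612 and 718. The highest values were at hours 26, 50 and 74, which are 24 h apart, and the lowest at hours 42 and 66. The fitted amplitude was 0.19 ± 0.04 (SE), a 1.30-fold change from trough to peak, with a peak at hour 4.71 and an adjusted p of 0.0198 in limma. Fitted alone and without the line in time, hours 26 to 46 gave an amplitude of 0.19 with a peak at hour 5.98. Hours 50 to 70 gave 0.20 and hour 4.16. Without hour 42, 66 or 74 the adjusted p was 0.0686, 0.0627 and 0.0582, so the call rests on each of those arrays.

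The other genes of the psbE operon had fitted peaks between hours 5.17 and 8.57 and were not called. psbE and psbF encode the alpha and beta subunits of cytochrome b559, and psbL another small subunit. For psbE the signals were 868, 1403, 997, 1311, 831, 871, 918, 941, 1137, 961, 658, 752 and 1054, with the high values at hours 30 and 38 of the earlier cycle and hour 58 of the later one. Its amplitude was 0.27 ± 0.09 (SE), with a peak at hour 8.57 and an adjusted p of 0.0925. For psbF the amplitude was 0.21 ± 0.07, with a peak at hour 6.56 and an adjusted p of 0.136. For psbL it was 0.20 ± 0.08, with a peak at hour 5.17 and an adjusted p of 0.203. At hour 70, where 54 of the 69 genes were above their own mean, psbL had its lowest signal of the course, 225 against 279 to 424 on the other arrays. The 4 genes are neighbours read from 1 transcript, so they do not count as 4 separate rhythms.

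The reaction centre proteins of photosystem II, D1 and D2, are encoded by psbA and psbD, and psbC encodes the inner antenna protein CP43. The signals of psbA were 1625, 1088, 2146, 1661, 1374, 1663, 1396, 401, 1562, 1290, 1310, 1693 and 421. Hours 54 and 74 stood apart below the others and hour 34 was highest, and hours 30 and 50, each taken 24 h from one of the low arrays, read 1088 and 1396. Its amplitude was 0.58 ± 0.20 (SE), a 2.23-fold change, with a peak at hour 17.3 and an adjusted p of 0.127, and its slope was -0.62 ± 0.23 with an adjusted p of 0.288. Without hour 54 the amplitude was 0.36, and without hour 42 it was 0.76. Without hour 74 the slope was -0.39, and with another single array left out it reached -0.75. Fitted alone, hours 26 to 46 gave an amplitude of 0.13 and hours 50 to 70 gave 0.57.

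For psbD the signals were 734, 295, 720, 230, 493, 817, 528, 362, 444, 369, 412, 725 and 255. The low values fell at hours 30, 38 and 74 and the high values at hours 26, 34, 46 and 70, so neighbouring arrays alternated. The amplitude of psbD was 0.40 ± 0.20 with a peak at hour 21.9 and an adjusted p of 0.351, and that of psbC was 0.39 ± 0.23 with a peak at hour 20.4 and an adjusted p of 0.455. Hours 34, 70 and 74 were also left out together, a choice made after seeing the data. The amplitudes were then 0.67 and 0.68, with psbD called (adjusted p 0.0338 in limma) and psbC not (adjusted p 0.0785). The signal of psbC was likewise lowest at hours 30, 38 and 74 (430, 449 and 426) and highest at hour 46 (1503). The 25S rRNA probe set was also low at hours 30 and 38, but likewise at hour 54 (31.9), and it read 70.8 at hour 74. With the 25S rRNA as a term the amplitude was 0.355 for psbD and 0.314 for psbC. The part of the 25S rRNA in the alternation was not tested.

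Among the smaller genes of photosystem II, psbN and psbZ had slopes below 0 that were not called. psbN, which encodes an assembly protein and lies on the strand opposite the psbB operon, read 47.2, 31.2, 118, 64.3, 44.0, 52.9, 36.3, 23.8, 28.4, 41.5, 24.7, 34.04 and 27.3. Its highest value was at hour 34, and 4 of its 5 lowest came at hour 54 or later. The slope was -0.62 ± 0.21 (SE), with an adjusted p of 0.222. psbZ ran from 1673 at hour 30 to 695 at hour 74, with a slope of -0.41 ± 0.12 and an adjusted p of 0.137. The remaining 6 genes, psbB (the inner antenna protein CP47), psbH, psbI, psbK, psbM and psbT, had amplitudes of 0.01 to 0.12.

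Photosystem I, which passes electrons on to ferredoxin, was represented by 5 genes, and 0 were called in either test. psaA and psaB encode its reaction centre. The signals of psaA were 1916, 997, 2214, 1097, 1727, 2067, 1543, 1514, 1728, 1560, 1590, 2353 and 973. They were lowest at hours 30, 38 and 74 and highest at hours 34 and 70. The amplitude was 0.20 ± 0.15 (SE), with a peak at hour 19.5 and an adjusted p of 0.625. Without hour 30 the amplitude was 0.12, and without hour 34 it was 0.30. psaC, for the subunit that holds the terminal iron-sulfur clusters, read 601, 323, 542, 386, 293, 539, 376, 371, 350, 289, 328, 468 and 371. Its amplitude of 0.20 ± 0.10 (adjusted p 0.367) and its slope of -0.21 ± 0.13 (adjusted p 0.592) were the largest of the 5 genes in size. Of the 2 assembly factors of the complex, ycf3 ranged from 47.8 at hour 30 to 232 at hour 46, with an amplitude of 0.28 ± 0.21 and an adjusted p of 0.611. Without hour 30 that amplitude was 0.06, and without hour 58 it was 0.44. ycf4 lay between 701 and 1038, with a slope of -0.18 ± 0.08 and an adjusted p of 0.377.

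The cytochrome b6f complex, which links the photosystems, had 6 genes, with a median amplitude of 0.08, and 0 were called. petN, for a small subunit, read 116, 154, 137, 182, 135, 140, 116, 90.9, 127, 125, 111, 151.1 and 67.4, with the highest value at hour 38 and the lowest at hour 74. Its amplitude was 0.27 ± 0.10 (SE), with a peak at hour 16.2 and an adjusted p of 0.139. The slope of petN was -0.33 ± 0.11 with an adjusted p of 0.234, or -0.20 without hour 74. Without hour 70 petN was called falling, and also rhythmic, with an amplitude of 0.28 (adjusted p 0.0363 in limma). petD, for subunit IV, had a slope above 0, at 0.36 ± 0.18 (adjusted p 0.495), from 34.2 at hour 30 to 150 at hour 74. petA (cytochrome f) and petB (cytochrome b6) varied little, with a highest-to-lowest ratio of 1.48 and 1.52 over the course.

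The ATP synthase had 6 plastid genes, and 0 were called. All 6 fitted peaks fell in hours 16 to 24, with SEs of 2.07 to 4.7 h and a median amplitude of 0.13. With the hybridisation controls as a term, 3 of the 6 did. Between the cycles, each fitted alone without the line in time, the peak moved by 0.75 to 1.96 h in the atpI operon. For atpE and atpB it moved by 7.00 and 7.15 h. At hour 74 the median of the 6 genes was -0.70, and at hour 70 it was 0.36. All 4 genes of the atpI operon had their lowest signal at hour 74, with atpA at 1442, atpF at 575, atpH at 528 and atpI at 24.8. atpH, for the subunit of the rotating membrane ring, read 1328, 670, 1606, 709, 1119, 1577, 909, 851, 1044, 904, 995, 1404 and 528, with low values at hours 30, 38 and 74. Its amplitude was 0.28 ± 0.17 (SE, adjusted p 0.486) and its slope -0.27 ± 0.19 (adjusted p 0.661). The genes of the other operon, atpB and atpE, for the beta and epsilon subunits, ranged over only 1.57-fold and 1.56-fold, and their lowest signal was at hour 26.

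The NDH complex, which carries electrons back into the chain around photosystem I, had 10 genes, and 0 were called. ndhH read 120, 72.7, 155, 103, 143, 157, 82.3, 100, 94.4, 92.0, 107, 167 and 61.0, with high values at hours 34, 46 and 70. Its amplitude was 0.37 ± 0.14 (SE), a 1.68-fold change, with a peak at hour 18.7 and an adjusted p of 0.177. ndhJ read 395, 390, 460.5, 416, 343, 545, 340, 295, 320, 267, 298, 377 and 242. All 6 values of hours 26 to 46 were above 340, and from hour 50 on only that of hour 70 was. The slope was -0.38 ± 0.10, with an adjusted p of 0.101. Its neighbour ndhK had a slope of -0.24 ± 0.10 (adjusted p 0.334), while ndhC, beside them on the genome, had one of 0.09 ± 0.08 (adjusted p 0.746). rbcL, for the large subunit of Rubisco, the enzyme that fixes carbon dioxide, read 279, 171, 375, 212, 321, 359, 232, 118, 234, 182, 184, 249 and 182. The highest values were at hours 34 and 46 and the lowest at hour 54. Its amplitude was 0.34 ± 0.15 (adjusted p 0.253), and its slope -0.39 ± 0.16 (adjusted p 0.360). The amplitude was 0.21 without hour 54. Without hour 34 it was 0.46, and rbcL was then called rhythmic (adjusted p 0.0481 in limma).

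The genes of the plastid's own expression apparatus held the only drift call. Of the 7 genes of the large ribosomal subunit, rpl16 was called falling. It read 707, 581, 991, 530, 659, 838, 511, 313, 535, 348, 333, 522 and 227. All 6 values up to hour 46 were 530 or higher, against 1 of the 7 later ones, at hour 58. The slope was -0.76 ± 0.16 (SE) log2 per 24 h, with an adjusted p of 0.0400 in limma. The adjusted p was 0.171 without hour 74, and it also rose above the threshold, to between 0.0511 and 0.0917, without hour 26, 30, 42, 46, 50, 54, 62 or 66. The adjoining gene rpl14 read 216, 144, 329, 189, 240, 276, 133, 111, 161, 104, 72.6, 158 and 58.1. Its slope was steeper, -0.89 ± 0.20, with a larger error and an adjusted p of 0.0503. rpl36, further along the same operon, had a slope of -0.43 ± 0.14 and an adjusted p of 0.213. For the remaining members of that operon the slope was -0.14 ± 0.14 for rpl22, -0.04 ± 0.10 for rps19, 0.10 ± 0.10 for rps3 and 0.01 ± 0.11 for rpoA.

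Of the 8 genes of the small ribosomal subunit, 0 were called. rps14 read 38.9, 33.9, 65.0, 68.3, 73.6, 58.4, 73.65, 95.5, 70.2, 80.7, 65.0, 52.4 and 113, lowest at hours 26 and 30 and highest at hour 74. Its slope of 0.50 ± 0.16 (SE) had an adjusted p of 0.175. rps15 read 91.2, 48.6, 103, 82.8, 74.99, 122, 56.8, 37.1, 113, 65.6, 54.3, 70.5 and 44.2, with high values at hours 34, 46 and 58 between low ones. Its amplitude was 0.31 ± 0.17, with an adjusted p of 0.413, and it was 0.19 without hour 54 and 0.46 without hour 58. The 4 core subunits of the bacterial-type polymerase included rpoC2, which read 124, 63.3, 167, 95.0, 152, 158, 115, 87.8, 128, 109, 92.6, 171 and 81.45. Its amplitude was 0.28 ± 0.16, with a peak at hour 19.0 and an adjusted p of 0.416. Without hour 30 the amplitude was 0.17, and without hour 34 it was 0.385. rpoB, the beta subunit, was dim and ranged from 21.4 at hour 38 to 73.9 at hour 46, with a slope of 0.14 ± 0.21 (adjusted p 0.886). The median slope of the 4 genes was -0.05.

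Of the 5 remaining genes 0 were called, and their median residual SD of 0.17 was the smallest of any group with over 1 gene. They are accD, for a subunit of the acetyl-CoA carboxylase of fatty acid synthesis, clpP, for the catalytic subunit of the Clp protease, matK, for an intron maturase, ccsA, for a protein of cytochrome c assembly, and cemA, for an envelope protein. matK lay between 1169 and 1959, with an amplitude of 0.18 ± 0.07 (SE), a peak at hour 20.9 and an adjusted p of 0.221. accD lay between 223 and 485, with a slope of -0.16 ± 0.13 and an adjusted p of 0.740. clpP varied least of these, with a highest-to-lowest ratio of 1.37.

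Genes of 1 operon tended to rise and fall on the same arrays, though not in every operon. Over the 13 arrays, the 88 pairs within an operon as grouped here had a median Pearson r of 0.42, and the 2258 other pairs had 0.22. The grouping set accD apart from psaI to petA, rps2 apart from atpI to atpA, and petL and petG apart from psaJ to rps18. Pairs between such neighbouring groups count among the other pairs. With the mean of the 69 genes on each array subtracted, the medians were 0.24 and 0.00. That mean is taken over the same genes and is not scaled to each of them. Subtracting it by itself pulls the typical r towards 0, and it can lower or raise the r of a single pair. These values are descriptions: all pairs share the same arrays and their scaling, and pairs within an operon share transcripts. Within an operon, the closest pairs were psbD with psbC (0.97), rpl14 with rpl16 (0.96), atpA with atpF (0.95) and atpB with atpE (0.94). Among the other pairs the highest r was 0.96, so close pairs were not confined to operons. By contrast, ndhC had r of -0.05 or -0.18 with the other genes of its operon, ndhJ and ndhK, which had 0.92 with each other. rps14 had -0.16 and -0.18 with psaB and psaA, the photosystem I genes with which it is transcribed, while those had 0.81 with each other. With the common profile subtracted, the median r over the 6 pairs of the psbE operon went from 0.50 to 0.78, while that over the 3 pairs of the rpoB operon went from 0.50 to -0.29 and that over the 3 pairs of ndhC, ndhK and ndhJ from -0.05 to -0.53.

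**Figure D4:**
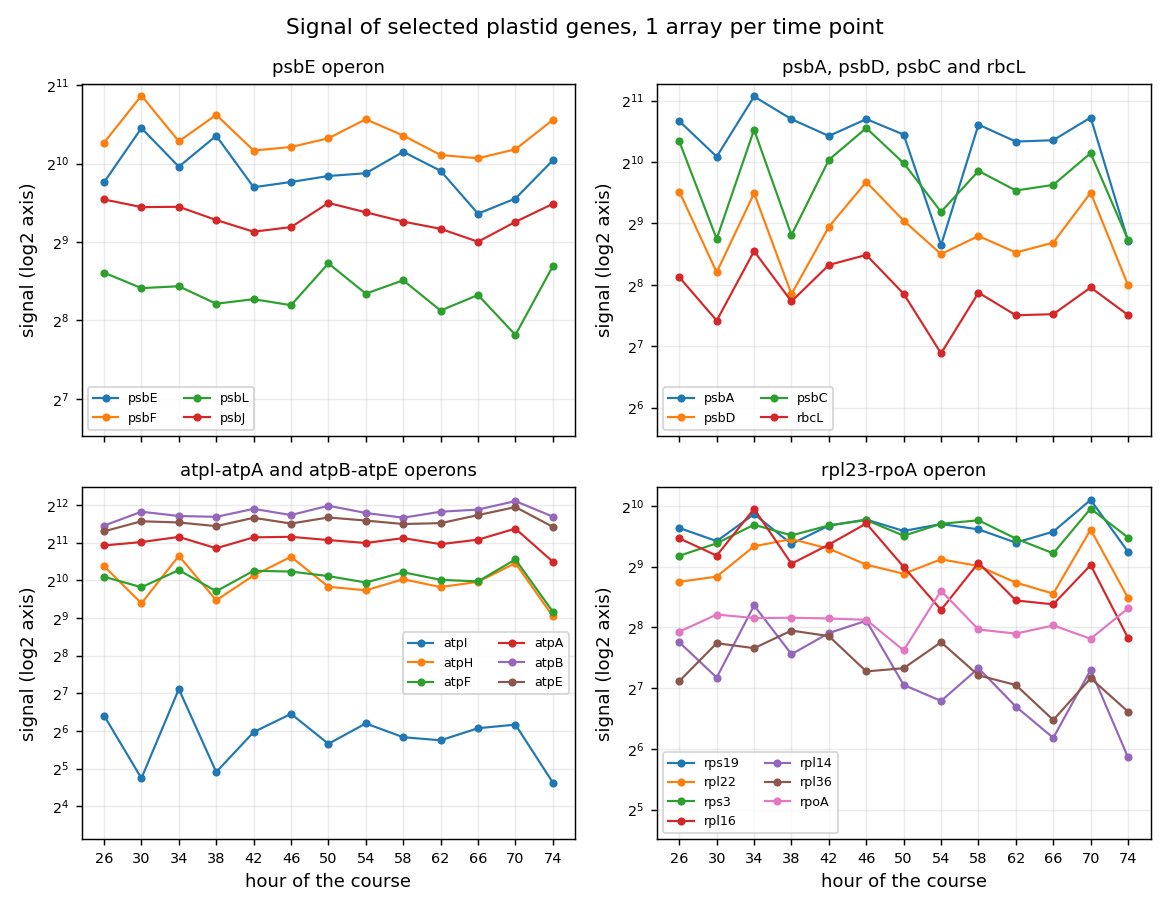
Signal (log2 axis) by hour of the course for the genes of the psbE operon, for psbA, psbD, psbC and rbcL, for both ATP synthase operons and for the rpl23-rpoA operon, with 1 line per gene. psbJ is high at hours 26, 50 and 74, psbA is low at hours 54 and 74, and rpl16 and rpl14 end below where they began; heights of different genes are not comparable, since their probes differ.

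Nuclear genes that serve the plastid could be read only in part. Of 86 such loci listed, 12 had a probe set with a single named gene and 11 were tested. The 6 sigma factors and 13 polymerase-associated proteins had 0 named probe sets and were not analysed here. Of the 11 tested, 5 were called rhythmic, against 18.3% of all probe sets, and 0 drifting. Both tested RNA processing genes were rhythmic. CP29B, a plastid RNA-binding protein, changed 1.70-fold with a peak at hour 12.8 (adjusted p 0.00145), and CRP1, which acts on petB, petD, petA and psaC transcripts (role known from maize), changed 1.36-fold with a peak at hour 17.1 (adjusted p 0.0395), a call that held in 11 of 28 alternatives.

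Of 8 nuclear subunits of the photosynthetic complexes, 3 were rhythmic. NDHN, of the NDH complex, changed 2.15-fold with a peak at hour 16.4 (adjusted p 8.09e-06), PSAN, of photosystem I, 1.54-fold with a peak at hour 3.66 (adjusted p 0.00261), and PSBY, of photosystem II, 1.49-fold with a peak at hour 2.83 (adjusted p 0.0205). PSAE1 of photosystem I (1.2-fold, adjusted p 0.377) and ATPC1 of the ATP synthase (1.02-fold, adjusted p 0.977) were not called. The nuclear ribosomal protein PRPL3 was not called either (1.17-fold, adjusted p 0.270). Whether nuclear and plastid subunits of 1 complex differ in rhythm was not tested. Of the mitochondrial genome, the other organelle genome, 18 single-gene probe sets were found and 3 of them, nad1, nad4 and cox1, lay above a mean log2 of 5. Their adjusted p for rhythm was 0.358 to 0.918 and for drift 0.543 to 0.972, so 0 were called.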

How the data were processed

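Total RNA of whole seedlings was measured on 13 ATH1 arrays. The authors deposited 1 signal intensity for each probe set, on a linear scale. MAS5 is the tool in the submitters' processing notes. With 2% trimmed from either end, every array averaged 100.01, so a change in total RNA per cell cannot be seen, and dim probe sets are noisy.

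The 22746 non-control probe sets were put on the log2 scale, and the 13647 above the 40th percentile of mean log2 (a mean signal of 31.8) were tested. A line in time and the cosine and sine of 24 h were fitted by lmFit and eBayes (trend by intensity) of limma 3.58.1, under R 4.3.3, which leaves 9 residual degrees of freedom. The moderated F over both daily terms tested rhythm, and the moderated test of the slope tested drift. Benjamini-Hochberg adjustment ran over all 13647, and an adjusted p under 0.05 was called. The fits were tested on simulated data. Members were matched by gene ID to the TAIR10.1 gene table (69 of 69). The sources used here do not give the genome build of the array design, so no coordinates are printed, and sequences were not used here. Figures were drawn with matplotlib 3.10.9.

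The members, gene lists and tests were chosen with earlier results of these data known. The rule for named genes gave values on all arrays to called members and, in each complex, to those with the largest amplitude and the steepest slope. psbA, rbcL, psaA and psbD were named whatever they showed, with up to 4 called and 2 uncalled genes of each nuclear list. Some of these are given by their range, and the genes of the psbE operon, psbC, psbZ, petA, petB, ndhK, rpl36 and clpP were singled out after their values were seen. Alternatives varied the normalization, an added offset, the filter on dim probe sets, the variance model, the curve (its terms and its period) and which arrays entered. A search for promoter motifs was not run.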

Additional observations from a re-analysis of the deposited data

How the results depend on the processing

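Over the alternatives, the slope of 34 of the 69 plastid genes kept its sign and that of 35 changed sign at least once, among them atpH, rps19, rps3, rpoA and rpoB, whose slopes are named and were not called. The slopes of rpl16 and rpl14 stayed below 0. The plastid median at hour 58, 0.0024, was -0.0028 relative to all probe sets tested. Of 28 alternatives, those that follow moved a count. The count of plastid genes called rhythmic, 1 as reported, was 2 with quantile normalization (atpB and psbJ), 0 with a 26 h period, 0 without hours 26 and 74, and 2 without hours 34, 70 and 74 (psbD and psbE), a choice made after seeing the data. Leaving out each array in turn gave 0 to 3. The count was 0 without hour 42, 66 or 74, and 3 without hour 38 (psbE, psbF and psbJ). It was 2 without hour 34 (psbJ and rbcL) or hour 70 (petN and psbJ). psbJ was called in 22 of the 28, with amplitudes of 0.16 to 0.25 and adjusted p-values of 0.0101 to 0.0910. The count of drifting plastid genes, 1 as reported, was 2 (rpl14 and rpl16) with equal array medians, relative to the plastid mean, with an offset of 16, and with the hybridisation controls or the 25S rRNA as a term, the last pair chosen after seeing the data. It was 0 with no filter, no intensity trend, no moderation, no 24 h terms or a 26 h period, and 0 without hours 26 and 74 or without hours 34, 70 and 74. Leaving out each array in turn gave 0 to 4, with 4 without hour 70 (rpl14, rpl16, petN and psbZ). rpl16 was called in 12 of the 28, with slopes of -0.85 to -0.61 and adjusted p-values of 0.00988 to 0.286, and rpl14 in 8. Of all probe sets tested, 131 drifted as reported, but 8 with no moderation, 56 without 24 h terms, 46 with a 26 h period, 21 without hours 26 and 74, 27 without hours 34, 70 and 74, and 49 to 169 with 1 array left out. Rhythmic calls over all probe sets stayed between 1770 and 2658. The calls of CP29B, PSAN and NDHN held in all 28, that of PSBY in 22 (adjusted p up to 0.0844) and that of CRP1 in 11 (up to 0.202). The causes of these moves were not tested. No paired analysis was possible because every time point has 1 array, so the groups share only replicate number 1. Genes near the lower end of the signal had imprecise log2 values. The residual SD was 0.53 for ndhF, 0.55 for rpoB and 0.54 for psbN, beside a median of 0.25 for the 69 genes. Imprecision was not confined to them, with 0.68 for psbC and 0.62 for psbA, which were bright.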

Other observations

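The 8 probe sets given to both copies of a duplicated plastid gene, which the annotation does not tie to a single gene, were looked at separately. Of these, 7 were bright enough to be tested, and in limma 0 were called rhythmic (lowest adjusted p 0.596) and 0 drifting (lowest adjusted p 0.0876). Their median deviation from the own mean was highest at hour 34 (0.37) and hour 46 (0.33) and lowest at hour 30 (-0.44). At hours 70 and 74 it was 0.22 and -0.24. Fitted amplitudes lay between 0.05 and 0.30 and slopes between -0.44 and 0.13 log2 per 24 h.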
